A study of Mus musculus with 36 samples.

Results

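Bone marrow-derived macrophages that had been given myelin debris for 24 h were compared between 2 cultures: with glioma cells (Co-culture) and without them (Mono-culture). Each culture gave 3 bulk RNA libraries, so the comparison used 6 of the 36 libraries of the series, and all 6 had received myelin. The tumour cells were the line named PDG-Ink4a Recurrent, a single line from a mouse glioma that carries enforced PDGFB expression in an Ink4a/Arf knockout background. Every result therefore concerns that 1 line. The labels name no genotype, sex, age or donor for these macrophages. They do not say that the 3 libraries of a culture came from separate animals or dishes. Each p-value of the gene tests thus measures a spread between libraries, part of which may be technical. That spread was estimated over all 18 macrophage libraries of the series. Libraries were primed on the poly(A) tails of RNA from purified cells and amplified from small inputs. Libraries are called by the number that closes their title (1, 2 or 3), and values are given in that order as CPM, a gene's count scaled to a library of fixed size with TMM factors. Summed marker levels, levels in tumour cells, Ddx3y, Xist and the means used to set genes aside are CPM without TMM factors.

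Of 29883 genes in the table, 13165 had enough counts to be tested. Sorted macrophages from a shared dish can carry RNA of the other cell type, so genes whose mean CPM at 0 h was more than 20 times higher in Mono-culture tumour cells than in Mono-culture macrophages were set aside. This removed 757 genes and kept 12408. Near the bound, the kept genes Armcx2, Zfp469 and Bace1 had ratios of 18.2, 19.4 and 19.7 and log2 differences of 0.46, -0.36 and 0.98. Just beyond it, Cav1, Slc7a5 and Tcaf1 had ratios of 20.2, 20.3 and 20.5 and log2 differences of 1.40, 1.44 and 0.42.

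Macrophages that engulf myelin digest its lipids in lysosomes, store cholesterol and fatty acids in droplets, and release sterols through transporters that the nuclear receptors LXR switch on. Macrophages inside gliomas are recruited by chemokines, take cues from growth factors and interferons, and in turn clear debris, present antigen and secrete ligands that act on the tumour. In brain tumours a lipid-laden state, marked by genes such as Gpnmb, Trem2 and Lpl, is one of several that macrophages take.

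After 24 h of myelin, macrophages with tumour cells held more mRNA of the CC chemokines Ccl2, Ccl7 and Ccl12, of the interferon-response genes Ifit1, Ifit3 and Mx1, of the complement gene C1qa, of the Fc receptor gene Fcgr1 and of 13 of 17 ER chaperones than macrophages alone. They held less mRNA of Lpl, Lipa and Plin2, which serve the uptake, lysosomal breakdown and storage of lipid. Also lower were the dendritic-type integrin Itgax, Ciita, the activator of MHC class II, and the shared GM-CSF receptor chain Csf2rb. So were the iron exporter Slc40a1 and the NRF2 target Prdx1. The level of Csf1r, the receptor that defines the lineage, was 1556, 1411 and 1704 CPM alone and 1818, 1660.1 and 1388 CPM with tumour cells, and the groups overlapped.

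The 6 libraries held 11048114 to 13365536 counts each. A principal component analysis of the tested genes placed the cultures apart on its first axis, which took 72.4% of the variance, and placed library 1 of both cultures apart from the other 4 on the second, with 13.6%. Libraries 1 also carried Ddx3y, a Y-linked gene, at 65.1 and 72.3 CPM with no Xist, while libraries 2 and 3 of Mono-culture had Ddx3y at 0 and those of both cultures had Xist at 652 to 1153 CPM. The macrophages of number 1 thus read as male and those of numbers 2 and 3 as female, so they came from at least 2 animals. Both libraries 1 gave 10.1% of their counts to 1 transcript, CT010467.1, against 0.422% to 0.746% in the other 4.

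Tumour RNA in the sorted macrophages was estimated from 50 genes of high tumour level. Its share was 4.25%, 4.88% and 4.76% in the Co-culture libraries, a mean of 4.63% ± 0.334 (SD, n = 3). In Mono-culture it was 0.0295% ± 0.0407 (SD, n = 3), and an exact permutation test, two-sided, gave p = 0.1, the smallest that 3 against 3 allows. Ddx3y gave a second measure where the macrophages lacked it but the tumour line had it, and its share was 4.33% in library 2 and 5.61% in library 3. In bulk RNA, a few whole tumour cells among the sorted cells and tumour RNA on or in many macrophages cannot be told apart, nor can fewer cells of a type and less RNA per cell. For each gene the share was multiplied by the level in co-cultured tumour cells at 24 h, as an estimate of the CPM that carried-over tumour RNA would add. In those tumour cell libraries the macrophage lineage genes summed to 43.8 to 1390 CPM (median 1330). Part of the level used may therefore be macrophage RNA, and its effect on the estimates and on their subtraction was not tested. Of the 1253 kept genes called higher, 1143 (91.2%) had an estimated addition under 50% of their difference, 110 had at least 50% and 18 had at least the whole difference, with a median of 12.7%.

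All 18 macrophage lineage genes were detected in both cultures, with a summed level of 12500 to 16000 CPM alone and 19600 to 21300 CPM with tumour cells. With TMM factors the group means summed to 14670 CPM alone and 19100 CPM with tumour cells. Markers of fibroblasts and mesenchymal cells summed to 5.26 to 34.6 CPM alone and 1150 to 1320 CPM with tumour cells. In co-cultured tumour cells these genes summed to 27100 to 36700 CPM, and all 11 that were tested fell among the genes set aside. Glioma cell markers summed to 505 to 747 CPM alone and 877 to 1050 CPM with tumour cells, with Sox10, Ptprz1, Bcan, Nkx2-2 and Aqp4 at 0 in both and Sox2 at 0 alone, against 2310 to 3540 CPM in the co-cultured tumour cells. Endothelial markers summed to 209 to 261 CPM alone and 146 to 232 CPM with tumour cells, with Cldn5 and Emcn at 0 in both. Neutrophil markers summed to a median of 32.3 CPM alone and 38.4 CPM with tumour cells, with Ly6g and Retnlg at 0 throughout. T, NK and B cell markers were near 0 in both cultures, with medians of 2.15 and 1.80 CPM, as were dendritic cell markers, with medians of 2.84 and 2.92 CPM.

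Among the 12408 kept genes, 3062 (24.7%) passed an adjusted p of 0.05 at 24 h, of which 1253 (10.1%) were higher with tumour cells and 1809 (14.6%) were lower. At least 2-fold changes made up 327 of the higher and 289 of the lower genes. The median log2 difference of the kept genes was -0.05. Without Mono-culture library 1 the count fell to 1896, with 801 higher and 1095 lower, and without both libraries 1 it was 2365. Groups of 3 did not overlap in 2046 genes (16.5%) that were higher and 2894 (23.3%) that were lower. Among the 757 genes set aside, 627 were called higher and 0 lower, by edgeR (0 lower also at an unadjusted p under 0.05), with a median log2 difference of 3.22. A gene near 0 in macrophages alone could pass the count filter only through Co-culture libraries. For such genes the direction was largely fixed by the filter. Matrix genes led them: the laminin chain Lama2, the fibrillar collagen Col11a1 and the proteoglycan Prelp had no counts in any Mono-culture library. With tumour cells Lama2 read 12.3, 16.3 and 14.6 CPM, Col11a1 28.3, 17.3 and 18.0 CPM and Prelp 35.4, 28.0 and 26.3 CPM, and such genes enter no further result.

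**Figure D1:**
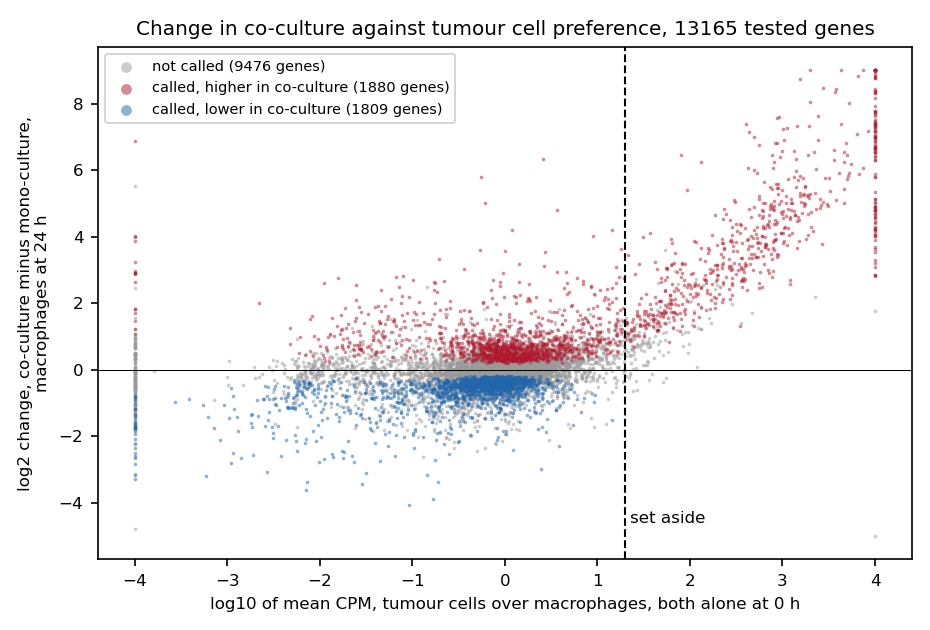
Each point is 1 tested gene, placed by the log10 ratio of its mean CPM in Mono-culture tumour cells to that in Mono-culture macrophages at 0 h and by its log2 difference, Co-culture minus Mono-culture macrophages at 24 h, with values beyond the axis ends drawn at the ends and a dashed line at the ratio of 20. Right of the line 627 of 757 genes were called higher and 0 lower, and left of it 1253 were called higher and 1809 lower.

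The share of genes called higher grew with that ratio even below the bound. It was 8.34% among genes with a ratio of up to 1, 10.3% from 1 to 5, 31.6% from 5 to 10, 38.1% from 10 to 20 and 82.8% above 20. The last share includes genes that could pass the count filter only through Co-culture libraries. With the carry-over estimate subtracted from the Co-culture counts, 2695 kept genes were called, 1268 higher and 1427 lower.

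Gene lists are described by their kept members. Among all kept genes 10.1% were called higher and 14.6% lower, and each list count below is to be read beside these shares. A count near them does not set a list apart. Where a list had 0 calls in a direction by edgeR, at most 1 of its members passed an unadjusted p under 0.05 in that direction, and DESeq2 called 0, apart from 1 respiratory chain subunit that it called higher and 1 endothelial marker.

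**Figure D2:**
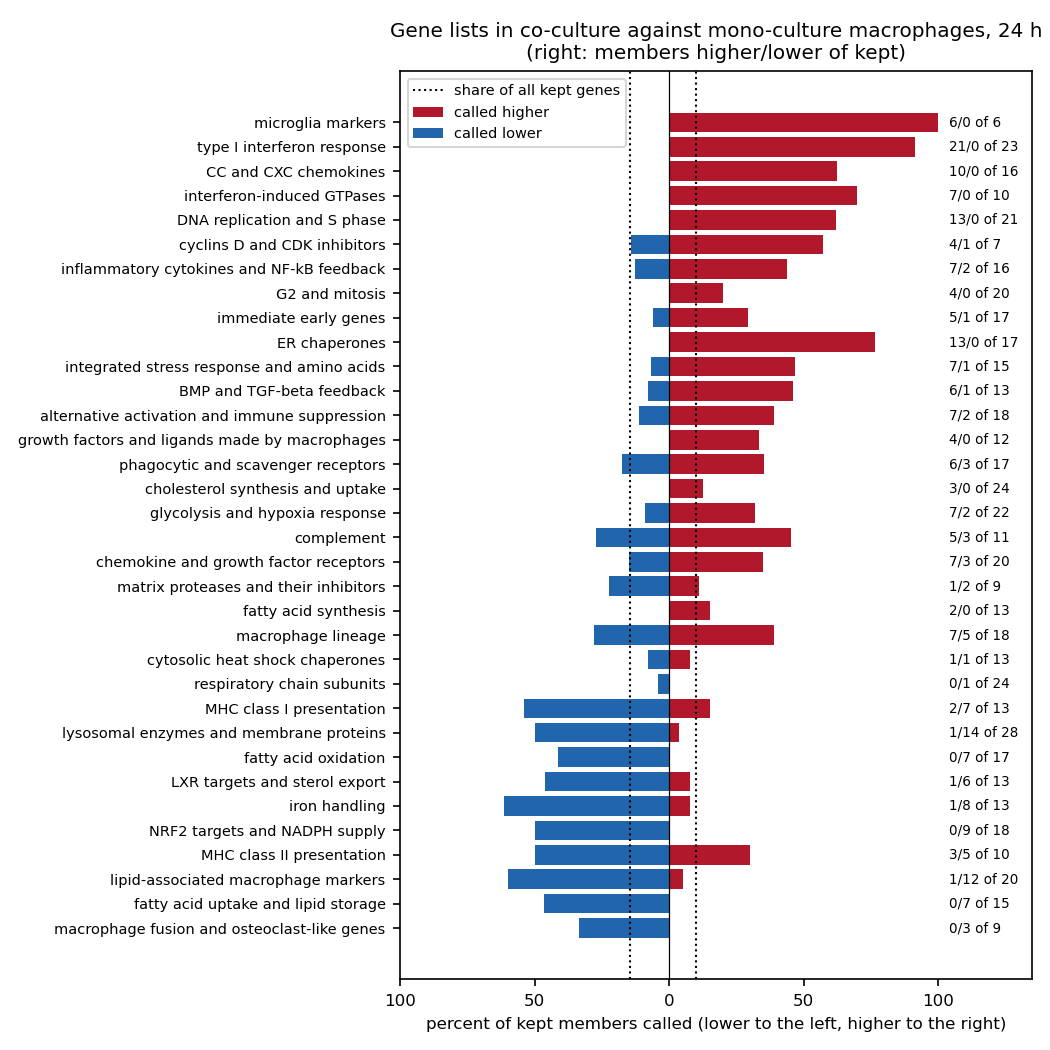
Bars give, for each gene list, the percent of kept members called higher (red, right) or lower (blue, left) in Co-culture against Mono-culture macrophages at 24 h, with counts at the right edge and dotted lines at the shares among all kept genes, 10.1% and 14.6%. The type I interferon list had 21 of 23 members higher and 0 lower, and the lipid-associated macrophage list had 1 higher and 12 lower of 20.

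Of the kept genes at 10 CPM or more in either culture whose groups did not overlap, Trem1 had the largest increase. Because this rule took only genes without overlap, the separation of the cultures in the 10 largest changes per direction is no further result, here or below. Trem1 (ENSMUSG00000042265, chr17:48232768-48246924), an activating receptor that amplifies inflammatory signals, was at 0.201, 0.639 and 0.248 CPM alone and 15.1, 14.4 and 8.94 CPM with tumour cells, a log2 difference of 5.02 ± 0.52 (SE) and an adjusted p of 1.36e-05, or 32.5-fold. Ch25h (ENSMUSG00000050370, chr19:34473778-34475164), which makes the oxysterol 25-hydroxycholesterol, read 0.201, 0.639 and 0.58 CPM alone and 17.4, 13.9 and 10.4 CPM with tumour cells (4.79 ± 0.35, adjusted p = 5.91e-07), or 27.6-fold. In both genes every Co-culture library lay above 8 CPM and every Mono-culture library below 1 CPM, and the co-cultured tumour cells held only 0.813 and 3.17 CPM. Rnase4 (ENSMUSG00000021876, chr14:51091077-51106151), a secreted ribonuclease, was at 7.82, 16.8 and 17.9 CPM alone and 99.7, 101 and 91.8 CPM with tumour cells (2.77 ± 0.27, adjusted p = 9.79e-06), with a narrow spread in Co-culture. The inhibitory receptor gene Pilra rose by 2.81 ± 0.47 from 1.30, 4.47 and 2.15 to 22.7, 19.6 and 15.8 CPM, and the zinc finger gene Zfp618 by 3.12 ± 0.50 from 0.201, 2.70 and 0.994 to 9.84, 14.7 and 11.5 CPM. Ms4a6b, a membrane protein gene with near copies such as Ms4a6c whose reads could be exchanged with it, differed by 2.78 ± 0.43, with 86.0 CPM in Co-culture library 1 against 37.9 and 35.7 in the other 2. Without Mono-culture library 2, the highest of its group, the differences were 5.75 for Trem1, 3.45 for Pilra and 4.24 for Zfp618. Ccl7, Ccl2, Ifit3 and Fcrls complete the 10 largest increases and are described with their groups.

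Gprc5c had the largest decrease by the same rule. Gprc5c (ENSMUSG00000051043, chr11:114851152-114872617), an orphan G protein-coupled receptor, fell from 23.3, 20.7 and 28.6 CPM alone to 2.89, 1.41 and 1.73 CPM with tumour cells (-3.61 ± 0.20, adjusted p = 4.52e-08), or 12.2-fold lower. Npas4 (ENSMUSG00000045903, chr19:4984355-4990316), a transcription factor best known as an activity-induced gene of neurons, fell from 11.5, 15.9 and 11.8 to 0.993, 1.27 and 1.49 CPM (-3.37 ± 0.26, adjusted p = 8.53e-07). Matk (ENSMUSG00000004933, chr10:81252935-81263365), a kinase that inhibits Src family kinases, fell from 85.0, 54.7 and 81.7 to 11.0, 10.1 and 13.7 CPM (-2.67 ± 0.19, adjusted p = 6.35e-07). The rule that chose these 3 took only genes whose groups did not overlap. Lat, an adaptor that links immune receptors to phospholipase C, was at 50.9, 25.7 and 31.1 CPM alone and 3.70, 4.65 and 8.23 CPM with tumour cells (-2.69 ± 0.42). Other decreases of this size were in Dcstamp, described below, and in Tmem178 (-3.09 ± 0.30), Galnt9 (-2.80 ± 0.29), Lrrc14b (-2.74 ± 0.44) and Cdkn1c (-2.77 ± 0.78). Galnt9 encodes an enzyme that starts O-linked glycans and Tmem178 a membrane protein that limits calcium release during osteoclast formation. Cdkn1c, an inhibitor of cyclin-dependent kinases, was at 137, 25.3 and 63.0 CPM alone and 7.49, 8.38 and 16.8 CPM with tumour cells, and its call was lost without either library 1, without both, and without Co-culture library 2.

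**Figure D3:**
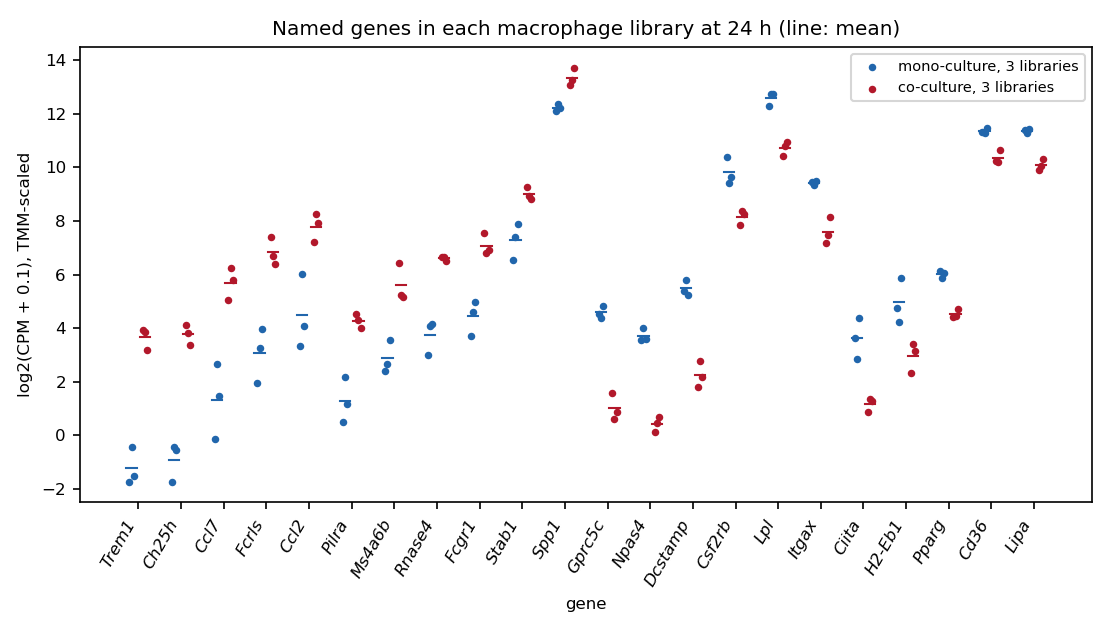
Points give the level, as log2 of TMM-scaled CPM plus 0.1, of 22 genes named in the text in each of the 6 macrophage libraries at 24 h, with Mono-culture in blue, Co-culture in red and a bar at each mean. The cultures do not overlap in any of these genes; for Trem1 the Co-culture libraries lie from 8.94 to 15.1 CPM and the Mono-culture libraries from 0.201 to 0.639 CPM.

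Of 16 kept CC and CXC chemokine genes, which draw leukocytes to a tissue, 10 were higher and 0 lower, with a median log2 difference of 1.32 against -0.05 for all kept genes, and 9 were higher without both libraries 1. Ccl7 (ENSMUSG00000035373, chr11:82045712-82047525), a monocyte attractant, was at 0.802, 6.18 and 2.65 CPM alone and 33.0, 76.0 and 56.2 CPM with tumour cells (4.02 ± 0.48, adjusted p = 3.80e-05). Its neighbour Ccl2 (ENSMUSG00000035385, chr11:82035571-82037453), the main ligand of the monocyte receptor CCR2, was at 10.0, 65.3 and 16.6 CPM alone and 147, 305 and 243 CPM with tumour cells (2.89 ± 0.51, adjusted p = 0.000783). Mono-culture library 2 was the highest of its group for both, and still under every Co-culture library. Without it the differences were 4.94 for Ccl7 and 4.10 for Ccl2. Ccl12, another CCR2 ligand of the mouse, rose by 4.21 ± 0.70, from 0.1, 0.497 and 0.166 to 5.59, 5.78 and 4.08 CPM, and by 5.14 without that library. The co-cultured tumour cells also held Ccl7 (127 CPM) and Ccl2 (87.4 CPM), and the estimated carry-over came to 10.7% and 1.89% of the differences. Pf4, a platelet-type chemokine that macrophages also make, rose by 2.55 ± 0.32 (2.31, 5.89 and 4.64 to 34.6, 23.4 and 19.3 CPM), and Cxcl10, an interferon-induced attractant of T cells, by 2.93 ± 0.53 (0.802, 1.21 and 1.32 to 17.3, 5.21 and 3.53 CPM), or by 1.97 without Co-culture library 1. Pf4 and Cxcl10 were chosen after their values were seen. The call for the neutrophil attractant Cxcl3 rested on 1 library, since it read 1.71, 0.0704 and 0.0784 CPM with tumour cells and 0, 0.071 and 0 CPM alone, the groups overlapped, and the call was lost without either library 1, without both, and without Mono-culture library 3.

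Of 12 kept ligand genes 4 were higher and 0 lower, and 8 further ligands of that list were among the genes set aside. Spp1 (ENSMUSG00000029304, chr5:104435118-104441050), the secreted matricellular protein osteopontin, was at 4418, 5261 and 4787 CPM alone and 8555, 9911 and 13549 CPM with tumour cells (1.15 ± 0.16, adjusted p = 9.07e-05). Tgfbi (ENSMUSG00000035493, chr13:56609523-56639562), a matrix protein induced by TGF-beta, was at 144, 394 and 262 CPM alone and 1039, 1044 and 845 CPM with tumour cells (1.87 ± 0.42, adjusted p = 0.00417). Osm, oncostatin M, a cytokine of the IL-6 family, rose by 1.46 ± 0.23 from 4.51, 8.31 and 5.30 to 13.7, 21.1 and 15.4 CPM (adjusted p = 0.000292). For Spp1, Tgfbi and Osm the lowest Co-culture library was above the highest Mono-culture library, and the carry-over estimate was 4.50%, 0.285% and 0.104% of the difference. Gas6, the ligand of the TAM receptors that take up dying cells, was higher by 0.75 ± 0.26 (adjusted p = 0.0443), a call that was lost in 5 of the 6 fits that left out 1 library and without both libraries 1; it held without Mono-culture library 3. Pdgfb, the growth factor that drives this glioma model, was at 40.0, 69.7 and 59.0 CPM alone and 40.8, 43.2 and 31.1 CPM with tumour cells (-0.56 ± 0.26, adjusted p = 0.128), and the groups overlapped.

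Type I interferon response genes were higher in 21 of 23 kept members and lower in 0, with a median log2 difference of 1.56. Only Oas3 and Ifih1 did not pass the test. Ifit3 (ENSMUSG00000074896, chr19:34583531-34588731), which binds viral RNA complexes, was at 3.71, 1.99 and 3.15 CPM alone and 49.3, 12.3 and 13.1 CPM with tumour cells (3.09 ± 0.63, adjusted p = 0.00225). Ifit1 (ENSMUSG00000034459, chr19:34640871-34650009), a close relative with which reads could be exchanged, was at 8.02, 6.18 and 4.47 CPM alone and 63.8, 22.3 and 20.3 CPM with tumour cells (2.51 ± 0.47, adjusted p = 0.00122). The dynamin-like antiviral GTPase gene Mx1 was at 1.80, 2.98 and 1.08 CPM alone and 27.8, 5.71 and 4.94 CPM with tumour cells (2.68 ± 0.65, adjusted p = 0.00648). Co-culture library 1 was the highest for all 3 genes, and libraries 2 and 3 of Co-culture still lay above every Mono-culture library. Without Co-culture library 1 the differences were 2.14 for Ifit3, 1.80 for Ifit1 and 1.44 for Mx1, all still called. Leaving it out lowered the median of the list to 1.01, and leaving out both libraries 1 lowered it to 0.91, with 21 members still called in the latter. Over the 6 fits that left out 1 library, 14 to 21 members were called. Libraries 1 also differ from the others in Ddx3y and CT010467.1, and the part of this in their interferon levels was not tested. The co-cultured tumour cells held Ifit3 at 123 CPM and Ifit1 at 158 CPM, and the carry-over estimate was 24.2% and 23.4% of the differences, against 1.33% for Mx1.

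Among 10 kept interferon-induced GTPases, which attack the vacuoles of intracellular microbes, 7 were higher and 0 lower, with a median of 1.05. This count was less steady: it was 4 without Mono-culture library 1, 3 without Co-culture library 1, 3 without Mono-culture library 3, 4 without both libraries 1 and 4 with carry-over subtracted. Iigp1 was at 0, 0 and 0.331 CPM alone and 3.07, 2.32 and 1.33 CPM with tumour cells, and Gbp5 at 0.902, 0.071 and 0.166 CPM alone against 6.14, 1.97 and 1.80 CPM together, so both changes rest on few counts. The value of Iigp1 ran from 3.60 to 7.77 without Mono-culture library 2 or 3. Gbp5 lost its call without Co-culture library 1 and without Mono-culture library 3. Tgtp2, which has a near-identical copy, lost it in 5 of the 6 fits that left out 1 library, without both libraries 1 and with carry-over subtracted (2.39, adjusted p = 0.0921), and kept it without Mono-culture library 2.

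**Figure D4:**
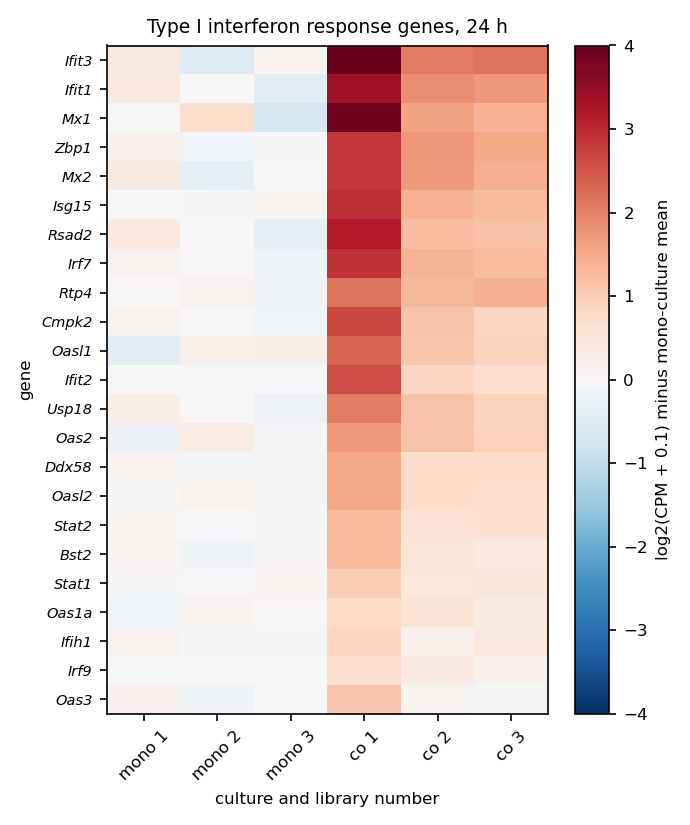
Colours give, for the 23 kept type I interferon response genes (rows) and the 6 macrophage libraries at 24 h (columns), log2 of TMM-scaled CPM plus 0.1 minus the mean of the 3 Mono-culture libraries. Co-culture library 1 has the strongest red in each row, and for Mx1 it stood at 27.8 CPM against 5.71 and 4.94 CPM in Co-culture libraries 2 and 3.

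The promoters of these genes are known for the interferon-stimulated response element, the site of the STAT and IRF factors. It was searched as GAAANNGAAA on both strands in RefSeq windows of GRCm38.p6 that run from 250 bases before to 50 bases after each annotated start. A gene counted once if any of its windows held the motif, and 387 of 9776 tested genes with a window did (3.96%). It was in 79 of 1005 such genes called higher (7.86%), in 48 of 1442 called lower (3.33%), in 10 of 16 of the type I interferon list (62.5%) and in 8 of 8 of the GTPases (100%). A match describes letters, not binding. Of 14 called genes of the type I interferon list with a window, 8 held a match. To show what the motif looks like, stretches of 4 interferon genes follow, those with the largest increases among called list members with a match before the start. Called members without such a match or window, Mx1 among them, were passed over. Each stretch is on the strand of its gene with matches in capitals, for Ifit3 (chr19:34583348-34583407, plus strand), Ifit1 (chr19:34640760-34640819, plus strand), Rsad2 (chr12:26456538-26456597, minus strand) and Isg15 (chr4:156200862-156200921, minus strand).
Ifit3: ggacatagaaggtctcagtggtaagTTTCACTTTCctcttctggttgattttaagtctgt
Ifit1: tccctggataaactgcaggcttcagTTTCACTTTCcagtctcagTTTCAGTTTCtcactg
Rsad2: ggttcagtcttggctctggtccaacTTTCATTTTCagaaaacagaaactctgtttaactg
Isg15: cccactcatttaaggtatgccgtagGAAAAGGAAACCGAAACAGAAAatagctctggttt
Ifit3, Ifit1 and Rsad2 carry the match on the opposite strand, and Isg15 carries overlapping matches on its own. Rsad2, the antiviral enzyme viperin, rose by 2.15 ± 0.56 (16.7, 12.9 and 9.69 CPM alone, 116, 30.0 and 29.2 CPM with tumour cells), and Isg15, a ubiquitin-like modifier, by 2.09 ± 0.44 (5.01, 4.90 and 5.30 CPM alone against 39.6, 13.4 and 12.2 CPM together). Without Co-culture library 1 these came to 1.19, no longer called, and 1.35. Both were added for their sequences after their values were seen.

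Of 12 genes used as microglial markers only 8 had enough counts to be tested, and 2 of these were set aside. All 6 kept members were higher, with a median of 1.88. A member low in macrophages alone, such as P2ry12, could pass the count filter through the Co-culture libraries. The microglial transcription factor Sall1 was at 0 in Mono-culture, and Tmem119 and Sparc were among the genes set aside. Fcrls (ENSMUSG00000015852, chr3:87250758-87263738), an Fc receptor-like gene enriched in microglia, was at 3.81, 9.37 and 15.6 CPM alone and 167, 104 and 83.9 CPM with tumour cells (3.61 ± 0.47, adjusted p = 8.37e-05). P2ry12, the receptor for nucleotides released by damaged cells, was at 0.602, 1.07 and 1.08 CPM alone and 7.85, 4.30 and 3.84 CPM with tumour cells (2.51 ± 0.48), and the secreted protein gene Olfml3 at 10.5, 41.0 and 35.3 CPM alone against 141, 112 and 98.4 CPM together (2.00 ± 0.43). The groups did not overlap for any of these 3, Fcrls and P2ry12 differed by 2.93 and 1.92 without both libraries 1, and the co-cultured tumour cells held Fcrls at 9.72, P2ry12 at 0.483 and Olfml3 at 51.9 CPM. The fractalkine receptor Cx3cr1 was called (1.49 ± 0.51, adjusted p = 0.0426), with 17.9, 65.0 and 56.6 CPM alone and 177, 116 and 103 CPM with tumour cells, and the call was lost in 5 of the 6 fits that left out 1 library; it held without Mono-culture library 2.

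Complement genes were mixed, with 5 of 11 higher and 3 lower. The chains of C1q, which starts the classical pathway and tags debris for uptake, were among the higher: C1qa (ENSMUSG00000036887, chr4:136895917-136898803) was at 23.9, 48.6 and 85.0 CPM alone and 389.6, 202 and 239.5 CPM with tumour cells (2.39 ± 0.52, adjusted p = 0.00371). C1qb was at 192, 319 and 547 CPM alone and 1109.5, 856 and 818 CPM with tumour cells (1.40 ± 0.34, adjusted p = 0.00707). Both were lowest in Mono-culture library 1 and highest in Co-culture library 1, and both lost their call without those 2 libraries, when 2 complement members in all stayed higher. Cfp, properdin, which stabilises the alternative pathway convertase, rose by 1.39 ± 0.29 (32.8, 80.7 and 68.5 to 173, 195 and 112 CPM). The count of lower members was 1 without Co-culture library 1, without Mono-culture library 2 and without Mono-culture library 3.

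Phagocytic and scavenger receptors had 6 of 17 members higher and 3 lower, the latter close to the 14.6% of all kept genes. Fcgr1 (ENSMUSG00000015947, chr3:96282909-96293969), the high-affinity IgG receptor, was at 13.1, 24.5 and 31.3 CPM alone and 187, 111 and 121 CPM with tumour cells (2.59 ± 0.30, adjusted p = 2.70e-05), 6.02-fold higher. Stab1, a scavenger receptor of tissue macrophages, was at 92.6, 169.6 and 237 CPM alone and 623, 493 and 452 CPM with tumour cells (1.65 ± 0.30, adjusted p = 0.000848). Carry-over was estimated at 0.0733% and 0.698% of these differences, and the groups did not overlap. Olr1, a receptor for oxidised lipoprotein, was at most 1.06 CPM and lost its call without Mono-culture library 1 and without Co-culture library 2.

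Inflammatory genes were higher in 7 of 16 kept members and lower in 2, the latter close to the 14.6% of all kept genes. Socs3, a feedback inhibitor of cytokine signals, was at 2.01, 2.98 and 2.32 CPM alone and 10.1, 15.4 and 12.1 CPM with tumour cells (2.34 ± 0.44, adjusted p = 0.00112). Nlrp3, an inflammasome sensor, was at 13.3, 32.4 and 22.7 CPM alone and 74.5, 70.5 and 59.0 CPM with tumour cells (1.56 ± 0.29, adjusted p = 0.00123), and the lipopolysaccharide co-receptor Cd14 at 148, 260.1 and 229 CPM alone against 577, 469 and 389 CPM together (1.17 ± 0.20). Every Co-culture library was above every Mono-culture library for these 3. The call for Il1b, interleukin-1 beta, came from Co-culture library 1 alone: it read 22.6, 0 and 0.471 CPM with tumour cells and 0, 0.071 and 0.0828 CPM alone, and the call was lost without that library, without Mono-culture library 1, without both and without Mono-culture library 3.

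Genes of alternative activation and immune suppression had 7 of 18 members higher and 2 lower, the latter not above the 14.6% of all kept genes. The higher count was only 2 without Mono-culture library 1, 3 without Co-culture library 1, 4 without Mono-culture library 2 and 4 without both libraries 1. Arg1, arginase 1, a marker of that state, read 9.20, 0.0704 and 0 CPM with tumour cells and 0, 0 and 0.0828 CPM alone, so its call also came from Co-culture library 1 and was lost without it, as it was without any 1 of the Mono-culture libraries. Mrc1, the mannose receptor, was at 98.6, 90.4 and 159.7 CPM alone and 305, 216 and 294 CPM with tumour cells (1.23 ± 0.37, adjusted p = 0.0211). Its groups did not overlap, and its call was lost in 4 of the 6 fits that left out 1 library and without both libraries 1, holding without Co-culture library 2 and without Mono-culture library 3.

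Receptor genes were higher in 7 of 20 members and lower in 3, a lower share close to the 14.6% of all kept genes. The 3 lower members were the chains of the GM-CSF and G-CSF receptors. Csf2rb (ENSMUSG00000071713, chr15:78325752-78353847), the signalling chain shared by the receptors of GM-CSF, IL-3 and IL-5, was at 1333, 679 and 804 CPM alone and 233, 330.2 and 307 CPM with tumour cells (-1.69 ± 0.27, adjusted p = 0.000298), 3.24-fold lower. A near copy, Csf2rb2, could exchange reads with it. Csf2ra, its binding partner, differed by -0.72 ± 0.10 and Csf3r, the G-CSF receptor, by -1.22 ± 0.28, both named to account for the lower members. The count of higher receptors was 4 without Mono-culture library 1, without Co-culture library 2 and without Co-culture library 3.

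MHC class II genes were lower in 5 of 10 members while the 3 co-stimulatory members of that list were higher. Ciita (ENSMUSG00000022504, chr16:10480059-10528418), the transcriptional activator that class II genes require, was at 12.2, 7.17 and 20.6 CPM alone and 1.71, 2.47 and 2.35 CPM with tumour cells (-2.60 ± 0.49, adjusted p = 0.0012). H2-Eb1, a class II beta chain, was at 27.2, 18.7 and 59.2 CPM alone and 4.96, 10.5 and 8.78 CPM with tumour cells (-2.10 ± 0.51, adjusted p = 0.00715). Mono-culture library 3 was the highest of its group in both, and no library crossed into the other group. Without it H2-Eb1 differed by -1.48. Reads of the H2 genes could be exchanged between alleles and paralogs. Cd74, the invariant chain, was at 386, 335 and 654 CPM alone and 128, 239 and 291 CPM with tumour cells (-1.06 ± 0.33, adjusted p = 0.0253), and lost its call without Co-culture library 1, without Co-culture library 2, without Mono-culture library 3 and with carry-over subtracted (adjusted p = 0.0509). The count of lower members was 3 without Co-culture library 1 and 2 without Mono-culture library 3. Cd40, which receives help from T cells, rose by 1.90 ± 0.34 (0.702, 2.41 and 1.90 to 7.04, 6.83 and 5.41 CPM), and Cd86 and Cd80, the ligands of CD28, by 1.68 ± 0.25 and 1.13 ± 0.23. Of 13 class I genes 2 were higher and 7 lower, led by H2-D1 (-0.99 ± 0.14); without Mono-culture library 1, Co-culture library 2 or Mono-culture library 3 the lower count was 4.

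Lipid-associated macrophage markers were lower in 12 of 20 members and higher in 1, Spp1, with a median of -0.66. Lpl (ENSMUSG00000015568, chr8:68880491-68907448), the lipase that frees fatty acids from lipoproteins, was at 5069.7, 6876 and 6776 CPM alone and 1390.4, 1802 and 1993 CPM with tumour cells (-1.85 ± 0.29, adjusted p = 0.00028), 3.61-fold lower. Itgax (ENSMUSG00000030789, chr7:128129547-128150657), the integrin CD11c, was at 694, 647 and 715 CPM alone and 143, 179 and 284 CPM with tumour cells (-1.76 ± 0.24, adjusted p = 8.70e-05). Clec7a, the beta-glucan receptor dectin-1, was at 269, 189 and 332 CPM alone and 64.6, 70.4 and 125 CPM with tumour cells (-1.60 ± 0.32, adjusted p = 0.00188). Every Co-culture library lay below every Mono-culture library for these genes. Trem2 (ENSMUSG00000023992, chr17:48346401-48354147), a lipid-sensing receptor, was at 859, 773 and 843 CPM alone and 514, 469 and 472 CPM with tumour cells (-0.77 ± 0.10, adjusted p = 6.52e-05). Gpnmb (ENSMUSG00000029816, chr6:49036546-49070929), a lysosomal and surface glycoprotein that marks the lipid-laden state, was at 31253, 17574 and 23254 CPM alone and 9594, 10533 and 14198 CPM with tumour cells (-1.07 ± 0.26, adjusted p = 0.00712). Mono-culture library 1 was the highest for Gpnmb, and the call was lost without it and without both libraries 1. Over the 6 fits that left out 1 library, 9 to 12 members were called lower.

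The list of fatty acid uptake and storage also holds the lipases Lipa and Pnpla2, which break lipid down. It was lower in 7 of 15 members and higher in 0, with a median of -0.80. When 1 library was left out, 6 to 8 were lower. Lipa (ENSMUSG00000024781, chr19:34492318-34527474), the lysosomal acid lipase that hydrolyses the cholesterol esters of engulfed lipid, was at 2727, 2526 and 2743 CPM alone and 963, 1055 and 1269 CPM with tumour cells (-1.28 ± 0.13, adjusted p = 8.31e-06). Plin2, the coat protein of lipid droplets, was at 1073, 1086 and 1511 CPM alone and 614, 722 and 701 CPM with tumour cells (-0.85 ± 0.13, adjusted p = 0.000223). Both cultures kept their libraries apart in these genes. Cd36, a fatty acid transporter named after its values were seen, differed by -0.98 ± 0.17 (2587, 2507 and 2819 to 1219, 1184 and 1596 CPM). Pnpla2, the lipase that starts triglyceride breakdown in droplets, differed by -1.12 ± 0.17 (144, 89.2 and 148 to 62.8, 57.0 and 55.9 CPM). Fatty acid oxidation genes were lower in 7 of 17 members and higher in 0, with a median of -0.35. The largest change in that list was in a regulator and not an enzyme of oxidation. Pparg (ENSMUSG00000000440, chr6:115360951-115490399), the nuclear receptor that drives lipid uptake, was at 69.7, 58.4 and 66.7 CPM alone and 21.4, 22.0 and 26.2 CPM with tumour cells (-1.48 ± 0.12, adjusted p = 1.88e-06). The oxidation enzymes Acaa2 and Acadm differed by -0.57 and -0.56.

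Genes of macrophage fusion and osteoclast-like cells were lower in 3 of 9 members. Dcstamp (ENSMUSG00000022303, chr15:39745930-39760938), a membrane protein needed for cell fusion, was at 42.3, 56.2 and 37.4 CPM alone and 3.43, 6.69 and 4.47 CPM with tumour cells (-3.20 ± 0.38, adjusted p = 3.77e-05), 9.18-fold lower. Atp6v0d2, a subunit of the proton pump found in osteoclasts, was at 1179, 704 and 936 CPM alone and 212, 242 and 396 CPM with tumour cells (-1.73 ± 0.31, adjusted p = 0.000918). Neither gene overlapped between cultures. The protease gene Ctsk passed the test only narrowly (adjusted p = 0.0462), its groups overlapped, and its call was lost in 4 of the 6 fits that left out 1 library, without both libraries 1, with RLE scaling and with carry-over subtracted (adjusted p = 0.0829).

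Lysosomal genes were lower in 14 of 28 members and higher in 1, with a median of -0.35. The lower count was 7 without Mono-culture library 1, 7 without Co-culture library 1, 9 without Co-culture library 2, 6 without Mono-culture library 3, 5 without both libraries 1 and 9 with carry-over subtracted. Tfeb (ENSMUSG00000023990, chr17:47737030-47792419), the transcription factor that switches on lysosomal genes, was at 81.0, 54.7 and 79.1 CPM alone and 31.0, 30.5 and 28.1 CPM with tumour cells (-1.26 ± 0.18, adjusted p = 0.000153). Psap, the precursor of the saposins that help to digest sphingolipids, was at 13368, 9079 and 14713 CPM alone and 6258, 6814 and 7823 CPM with tumour cells (-0.83 ± 0.20, adjusted p = 0.00505), and lost its call without both libraries 1. TFEB is known to bind the CLEAR element, whose core TCACGTGA reads the same on both strands. That core was in 216 of 9776 tested genes with a window (2.21%), in 48 of 1442 such genes called lower (3.33%), in 17 of 1005 called higher (1.69%) and in 3 of 22 of the lysosomal list (13.6%). The 3 lysosomal stretches are shown because their genes were all called lower, with the core in capitals: Ctsa (chr2:164833735-164833772, plus strand), Mcoln1 (chr8:3500448-3500505, plus strand) and Ctsd (chr7:142387894-142387951, minus strand).
Ctsa: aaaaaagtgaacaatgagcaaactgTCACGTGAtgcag
Mcoln1: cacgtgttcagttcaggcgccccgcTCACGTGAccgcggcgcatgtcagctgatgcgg
Ctsd: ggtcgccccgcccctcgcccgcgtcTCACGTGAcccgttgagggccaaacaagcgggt
The protease and glycosidase partner Ctsa differed by -0.59 ± 0.12 (adjusted p = 0.00242), the calcium channel Mcoln1 by -0.49 ± 0.10 (adjusted p = 0.00249) and the protease Ctsd by -0.45 ± 0.15 (adjusted p = 0.0346), the last with overlapping groups. They were named for their sequences after their values were seen. Ctsa and Mcoln1 kept their calls whichever library was left out, and Ctsd lost its call without either library 1, without both, without Co-culture library 2, without Mono-culture library 3 and with carry-over subtracted (adjusted p = 0.1).

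Iron handling genes were lower in 8 of 13 members, a count that stayed at 8 in all 6 fits that left out 1 library. Slc40a1 (ENSMUSG00000025993, chr1:45908068-45926523), ferroportin, the iron exporter, was at 18.2, 16.9 and 25.9 CPM alone and 7.13, 6.27 and 7.29 CPM with tumour cells (-1.56 ± 0.29, adjusted p = 0.000981). Ncoa4, which delivers ferritin for breakdown, differed by -1.04 ± 0.17 (190.5, 150.0 and 198 to 62.3, 95.6 and 103 CPM), and the ferritin heavy chain Fth1 by -0.68 ± 0.12 (14800, 11810 and 13061 to 7908, 7946 and 8904 CPM). NRF2 targets, the antioxidant genes of that factor, were lower in 9 of 18 members and higher in 0, and 5 were lower without Co-culture library 3. Prdx1, a peroxidase, differed by -0.90 ± 0.17 (2489, 2559.9 and 2397 to 1264, 1354 and 1365 CPM), and Srxn1, which repairs it, by -0.85 ± 0.11 (225, 196 and 201 to 114, 115 and 116 CPM). Hmox1, the haem-degrading target of the same factor, did not pass the test, at 428, 488 and 436 CPM alone and 363, 416 and 352 CPM with tumour cells (-0.26 ± 0.17, adjusted p = 0.281).

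Sterol genes were less uniform. The list of LXR targets and sterol export also holds enzymes that make oxysterols, among them Ch25h and Cyp27a1. Of its 13 kept members 6 were lower and 1, Ch25h, was higher. Cyp27a1, which makes 27-hydroxycholesterol, differed by -1.03 ± 0.25 (16.3, 14.8 and 24.7 to 10.2, 8.73 and 8.39 CPM). The exporters did not pass the test: Abca1 was at 398, 332 and 486 CPM alone and 618, 488 and 558 CPM with tumour cells (0.45 ± 0.39, adjusted p = 0.436), and Abcg1 at 766, 533 and 779 CPM alone against 404, 445 and 392 CPM together (-0.74 ± 0.31, adjusted p = 0.0814). Apoe, the lipoprotein that accepts the exported sterol, overlapped between cultures at 946, 419.6 and 1443 CPM alone and 1589.9, 609 and 957 CPM with tumour cells (0.17 ± 0.46, adjusted p = 0.826). In cholesterol synthesis 3 of 24 members were higher, close to the 10.1% of all kept genes, and 0 were lower. Carried-over tumour RNA was estimated at 61.2% of the difference for Hsd17b7, 77.8% for Acat2 and 117% for Nsdhl. With the estimate subtracted, no member of this list or of the fatty acid synthesis list was called. Without subtraction, 1 cholesterol synthesis member was called when library 3 of either culture was left out and 6 without both libraries 1. The 2 called members of fatty acid synthesis, Scd2 and Elovl6, had estimates of 81.0% and 106%, and Elovl6 lost its call without both libraries 1 (0.39, adjusted p = 0.128), without either of them and without Mono-culture library 3. Hmgcs1, an early enzyme of sterol synthesis, was at 71.6, 64.6 and 68.8 CPM alone and 71.8, 57.3 and 66.5 CPM with tumour cells (-0.07 ± 0.28, adjusted p = 0.886).

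Chaperones of the endoplasmic reticulum were higher in 13 of 17 members and lower in 0, with a median of 0.48, and 11 to 14 were higher when 1 library was left out. Manf, a secreted stress protein, rose by 0.86 ± 0.15 (39.2, 51.8 and 52.1 to 83.5, 91.4 and 85.2 CPM), Herpud1, which serves the breakdown of misfolded proteins, by 0.80 ± 0.11 (22.6, 21.6 and 25.5 to 40.1, 43.5 and 37.8 CPM), and the disulfide isomerase Pdia4 by 0.77 ± 0.12 (80.1, 94.1 and 104 to 156, 169.6 and 148 CPM). Carry-over was estimated at 11.7%, 34.6% and 17.4% of their differences. Integrated stress response and amino acid genes were higher in 7 of 15 members and lower in 1, but 3 were higher once carry-over was subtracted and 4 without both libraries 1. Phgdh, the first enzyme of serine synthesis, rose by 1.12 ± 0.13 (14.2, 19.0 and 14.0 to 28.5, 41.0 and 33.5 CPM) with a carry-over estimate of 47.2%, and Mthfd2, a mitochondrial folate enzyme, by 0.95 ± 0.18 with 11.2%. Atf3, a stress-induced repressor, was the lower member, at 534, 503 and 516 CPM alone and 180.3, 221 and 238 CPM with tumour cells (-1.28 ± 0.13, adjusted p = 7.64e-06).

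Replication genes were higher in 13 of 21 members, with a median of 0.70, and mitotic genes in 4 of 20, with a median of 0.63, and neither list had a lower member. Both counts moved with the fit. Replication had 4 without Mono-culture library 1, 3 without Co-culture library 2, 5 without Mono-culture library 3, 8 without Co-culture library 3, 5 with no expression filter and 8 with only the groups compared. Mitosis had 0 without Mono-culture library 1 or Co-culture library 2, 1 without library 3 of either culture, 16 without Mono-culture library 2 and 9 without both libraries 1. It also had 9 with RLE scaling, 9 with carry-over subtracted, 12 by DESeq2, and 0 with no expression filter or with only the groups compared. Ccne1, which drives entry into S phase, was at 11.7, 26.6 and 14.8 CPM alone and 32.7, 40.8 and 40.1 CPM with tumour cells (1.08 ± 0.28, adjusted p = 0.00943). Mki67, the proliferation antigen, was at 292, 586 and 414 CPM alone and 631, 809.8 and 709.9 CPM with tumour cells (0.73 ± 0.25, adjusted p = 0.0365), and lost its call in 4 of the 6 fits that left out 1 library, holding without Co-culture library 1 and without Mono-culture library 2. Mono-culture library 2 was the highest of its group in both genes. Ccnd3, a D-type cyclin, rose by 1.01 ± 0.14 (34.7, 40.1 and 38.8 to 92.7, 71.1 and 65.1 CPM, adjusted p = 7.72e-05).

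Other lists moved less or in part. Immediate early genes were higher in 5 of 17 members and lower in 1: Ier3, a survival gene, rose by 2.15 ± 0.27 (5.21, 5.40 and 4.64 to 24.1, 25.3 and 18.4 CPM) and the transcription factor Egr2 differed by -2.14 ± 0.24 (174, 117 and 129.5 to 21.9, 30.6 and 42.5 CPM). Their higher count was 2 without Mono-culture library 1, and 3 without Co-culture library 2, Mono-culture library 3 or Co-culture library 3 or with carry-over subtracted. BMP and TGF-beta feedback genes were higher in 6 of 13 and lower in 1, among them the inhibitor of differentiation Id1 (2.19 ± 0.57), which lost its call without both libraries 1 and differed by 3.91 without Mono-culture library 2. Glycolysis and hypoxia genes were higher in 7 of 22 and lower in 2, the latter not above the 14.6% of all kept genes. The lactate exporter Slc16a3 was at 0.99 ± 0.23 and the hypoxia gene Ndrg1 at -1.12 ± 0.20. The Slc16a3 call was lost without both libraries 1. Of 24 respiratory chain subunits 0 were higher and 1 lower, with a median of -0.11. Of 9 kept matrix proteases and inhibitors 1 was higher and 2 lower, led by the elastase Mmp12, which was at 6239.7, 5019 and 4514 CPM alone and 1097, 2165 and 2528 CPM with tumour cells (-1.45 ± 0.31, adjusted p = 0.00281). Macrophage lineage genes split into 7 higher and 5 lower of 18, with a median of 0.01; 4 were higher without either library 1, and 3 were lower without Mono-culture library 1, Co-culture library 2, Mono-culture library 3 or both libraries 1, or with carry-over subtracted. D-type cyclins and CDK inhibitors were higher in 4 of 7, or 2 without Mono-culture library 3 or both libraries 1, and cytosolic heat shock chaperones were higher in 1 and lower in 1 of 13. In the smallest counts single libraries also mattered: the 2 lower inflammatory genes were 0 without Mono-culture library 3. No protease gene was called higher without Mono-culture library 3 or without any 1 of the Co-culture libraries. No iron gene was called higher without either library 1 or without Mono-culture library 2. The higher lysosomal count was 0 without Mono-culture library 1 or Co-culture library 2 or 3. The higher heat shock count was 0 without Co-culture library 2 or 3.

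The same cultures were also sampled at 0 h and 6 h of myelin, with 3 libraries a group. At 0 h, 1296 kept genes (10.4%) were called between the cultures, 503 higher (4.05%) and 793 lower (6.39%). Library numbers paired at 0 h, where the correlations of same-number residuals were 0.774, 0.694 and 0.288, and with the number as a block 1983 were called. At 6 h it was 898 (7.24%), with 355 higher (2.86%) and 543 lower (4.38%). The 0 h count was 822 without Mono-culture library 1 and 648 without Co-culture library 2 of that time, and the 6 h count 590 and 574 without Co-culture libraries 1 and 2 of that time. The 3 comparisons use different libraries. Of the 1253 genes higher at 24 h, 374 were also called higher at 0 h, which is 29.8% of the 24 h list and 74.4% of the 0 h list, and 1193 (95.2%) had the same sign at 0 h. The share of all kept genes with the same sign at both times was not worked out. Tumour RNA was also estimated at 1.2%, 3.4% and 1.9% in the Co-culture macrophages of 0 h, and its part in the shared signs was not tested. Of the 1809 lower at 24 h, 603 were also called lower at 0 h, 33.3% and 76.0% of the lists. The median log2 difference of the genes higher at 24 h was 0.66 at 24 h, the time that chose them, and 0.38 at 0 h.

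Several leading genes already differed before myelin. The difference in Trem1 was 3.68 ± 0.41 at 0 h, 3.22 ± 0.41 at 6 h and 5.02 ± 0.52 at 24 h. In Npas4 it was -3.94 ± 0.27, -3.67 ± 0.28 and -3.37 ± 0.26, and in Lipa -1.15 ± 0.13, -1.07 ± 0.13 and -1.28 ± 0.13. For the interferon gene Mx1 the values were 0.36 ± 0.63, 1.27 ± 0.64 and 2.68 ± 0.65, and the median of the type I interferon list was 0.43 at 0 h. Abca1 had its largest difference at 0 h (1.97 ± 0.42, adjusted p = 0.00547), where the macrophages had no myelin.

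Whether the culture difference at 24 h departed from that at 0 h was tested as an interaction in the fit of all 18 macrophage libraries. Only 2 of 12408 genes (0.0161%) passed, both in the lower direction, and 0 passed in the higher direction by edgeR, where 382 had an unadjusted p under 0.05 and DESeq2 called 21. With only the 12 libraries of both times 0 passed, whereas blocking on library number gave 23, of which 10 were higher and 13 lower. Without number 1 in every group 2 other genes passed, the sterol synthesis genes Hsd17b7 and Fdft1, both in the higher direction. With 1 library left out the count was 0 without either 24 h library 1, without Co-culture library 1 of 0 h and without Mono-culture library 3 of 0 h, 21 without Mono-culture library 2 of 24 h, and 1 without several others. For Trem1, Mx1 and Abca1 the adjusted p of the interaction without a block was 0.737, 0.554 and 0.538. Dusp9 (ENSMUSG00000031383, chrX:73639419-73643514), a phosphatase that switches off MAP kinases, went from 0.61 ± 0.15 at 0 h through -0.05 ± 0.15 at 6 h to -1.11 ± 0.16 at 24 h, an interaction of -1.71 ± 0.22 (adjusted p = 0.00937). At 24 h it was at 11.7, 12.9 and 8.69 CPM alone and 4.33, 5.28 and 5.80 CPM with tumour cells, without overlap. Sdc1 (ENSMUSG00000020592, chr12:8771323-8793715), the heparan sulfate proteoglycan syndecan-1, went from 0.47 ± 0.15 through -0.05 ± 0.15 to -0.95 ± 0.15, an interaction of -1.42 ± 0.21 (adjusted p = 0.0326). The 24 h levels of Sdc1 were 237, 148 and 232 CPM alone and 101, 105 and 112 CPM with tumour cells.

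**Figure D5:**
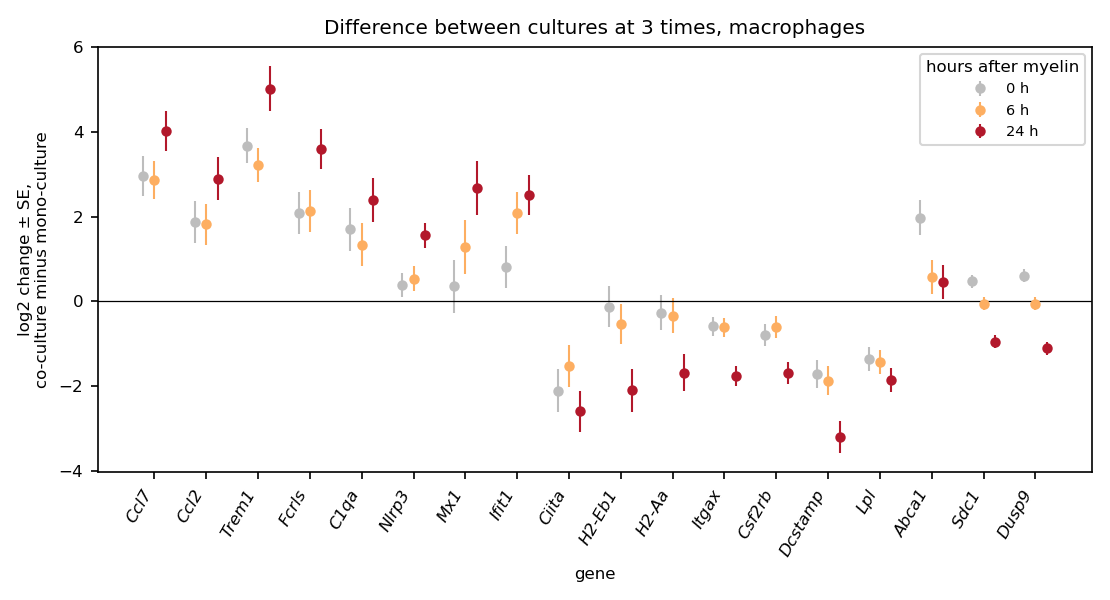
Points give the log2 difference, Co-culture minus Mono-culture macrophages, with bars of 1 SE, for 18 genes at 0 h (grey), 6 h (orange) and 24 h (red) of myelin, each from 3 against 3 libraries. Dusp9 and Sdc1 lie above 0 at 0 h and below 0 at 24 h, and Trem1 lies above 3 at each time.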

How the data were processed

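Whole-gene counts were deposited by the authors as 1 table of 29883 genes and 36 libraries, mapped to mm10 per the submitters' processing notes, with aligner and counter not given in the sources used here. Printed gene positions come from the table. Groups came from the titles. The 18 macrophage libraries were fitted together in R 4.3.3 with limma 3.58.1 and edgeR 4.0.16, using TMM scaling, the default expression filter and robust quasi-likelihood dispersions (biological coefficient of variation 0.164). Calls used a Benjamini-Hochberg adjusted p of 0.05 over all 13165 tested genes. SE is the log2 difference divided by the square root of F. Estimated tumour RNA is the median share over 50 tumour genes of at least 100 CPM.

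In data simulated for this comparison on 12867 genes, 58% of 2-fold increases and 83.7% of 4-fold increases were recovered. Decreases of the same sizes were recovered at 70% and 85.1%. The simulated libraries were independent, with no effect shared by a library number, so these rates may not hold for the real libraries. Members and gene lists were chosen with earlier results of these data known. Named genes were the 10 largest changes per direction at 10 CPM or more without overlap, up to 3 called members of each list whatever their level or overlap, and a set of 20 genes; others are marked as chosen after their values were seen. A few genes that the rule takes are not reported here. Same-number libraries at 24 h had residual correlations of 0.415, 0.222 and 0.0661, the lowest being under the limit of 0.1 set for pairing. The main fit had no block, although sex and the CT010467.1 share went with the number in both cultures. With the number as a block 4003 kept genes were called at 24 h, against 3062. Alternatives were RLE scaling, no expression filter, non-robust dispersions, DESeq2 1.42.0, a block, fewer groups, each library left out, and carry-over subtracted. No replicate pair agreed within sampling noise.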

Additional observations from a re-analysis of the deposited data

Results flagged for a closer look

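Dusp9 and Sdc1 were singled out because they passed the interaction test of the culture difference at 24 h against that at 0 h. The 24 h difference minus the 0 h difference was -1.71 on the log2 scale for Dusp9 (adjusted p = 0.00937) and -1.42 for Sdc1 (adjusted p = 0.0326), both by edgeR in the fit of all 18 macrophage libraries. The result was not steady: 0 genes passed when only the 12 libraries of both times were fitted. Neither gene passed without number 1 in every group, and with 1 library left out 0 to 21 genes passed.

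The genes set aside for their tumour level, which enter no comparison, gave a signal in Co-culture macrophages: 627 of 757 were called higher than in Mono-culture macrophages.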

How the results depend on the processing

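At 24 h the count of 3062 called genes ranged from 1896 to 3467 when 1 library was left out, and that of 2-fold changes, 616, from 436 to 817. With only the 2 groups of 24 h fitted, 2424 were called. RLE scaling called 1530 higher and 1559 lower and DESeq2 1557 and 1575, against 1253 and 1809, and carry-over subtraction 1268 and 1427. Blocking on library number gave 4003 at 24 h. At 0 h every same-number correlation passed the limit of 0.1, and 1983 were called with the block and 1107 without number 1. At 6 h, where the block gave 1550, and at 24 h the lowest correlations were -0.0197 and 0.0661, under that limit. At none of the 3 times did every library correlate best with its own number. The interaction count of 2 was 23 with the block, 52 by DESeq2, 0 when only the groups compared were fitted, and 0 to 21 with 1 library left out. Leave-out ranges were 648 to 1024 at 0 h and 574 to 877 at 6 h, where fitting only the groups compared gave 510. The tumour RNA share ran from 4.51% to 4.82% with 1 library left out, and was 4.91%, 4.11% and 4.56% with 20 marker genes, the 24 h reference or summed markers. The causes were not tested. Of 131 called genes named in the text or by the naming rule, 106 to 125 kept their call in each fit that left out 1 library, 110 of 130 without both libraries 1, 118 of 129 after carry-over subtraction, 113 of 131 with no expression filter, 116 of 127 with only the groups compared and 129 of 129 by DESeq2, and none changed sign in these fits. Low-count genes such as Il1b, Arg1, Cxcl3 and Iigp1 carry the widest errors.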
